A study of Drosophila melanogaster with 14 samples.

Results

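The 65 genes described here are the long non-coding RNAs (lncRNAs) with a clear level in these libraries. They are the rows of the count table annotated as lncRNA genes whose mean reached 5 CPM (a gene's count scaled to a fixed library total) over all 14 libraries. The table held 1933 lncRNA rows among 17868 genes, of which 1863 lay under that level and 5 above it were left out by the rule. Members were thus selected on their mean level over all libraries, treated and control, so levels are given as a description with no test. Just inside the threshold lay CR43459 at 5.09 CPM, CR43256 at 5.16 and CR46250 at 5.29. Just outside lay CR45473 at 4.90 CPM, CR45758 at 4.81 and CR43961 at 4.61.

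The libraries came from type II neural stem cells (NSCs, the larval brain stem cells whose daughters divide again as intermediate progenitors) of Drosophila. In 1 experiment, 3 libraries of GAF RNAi were set against 3 controls, in another 2 of HDAC1 RNAi against 2 controls, and in the last 2 of Osa overexpression against 2 controls. All controls had the genotype WT. GAF is the GAGA factor, a DNA-binding protein encoded by Trl, HDAC1 is a histone deacetylase, and Osa is a subunit of the Brahma chromatin remodeller. The sources used here give no driver line, no RNAi or overexpression line and no age of the larvae, and the series text speaks of Osa knockdown where the sample labels say overexpression. RNA of 1k to 2k cells per library was amplified with the Discover-sc WTA Kit V2 and made into libraries with a transposase kit that does not mark strand. Whether replicates are separate crosses or dissections is not stated in the labels, and p-values therefore reflect variation among libraries that could be technical.

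Long non-coding RNAs are transcripts without a long open reading frame. Some act as RNA in the nucleus, where they hold proteins or mark chromatin, some are the precursors from which microRNAs are cut, and for most in the fly no role is known. Hsromega is the best studied of the members: it is a nuclear RNA induced by heat shock and other stresses, and it gathers RNA-binding proteins of the hnRNP class in the omega speckles. MicroRNAs are short RNAs that lower the output of target mRNAs, and in the nervous system bantam is known for growth and survival and miR-124 as a microRNA of neurons and their progenitors.

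Total counts ran from 31788351 to 51505597 per library, and the members took between 1.32% and 5.51% of them. The pair of HDAC1 RNAi libraries was the least alike of all replicate pairs (r = 0.948 over genes, against 0.973 to 0.980 for the others). The targeted genes checked the labels unevenly. Trl stood at 6.29, 5.5 and 4.71 CPM in the GAF controls and at 5.18, 5.96 and 4.48 CPM under GAF RNAi, a log2 fold change of -0.08 ± 0.25 (SE; edgeR adjusted p = 0.843), so its RNA does not separate the labelled groups. HDAC1 stood at 70.9 and 79.2 CPM in its controls and 59.7 and 34.7 CPM under RNAi, a log2 fold change of -0.67 ± 0.39 (SE; edgeR adjusted p = 0.576). osa stood at 146 and 149.6 CPM in its controls and 299 and 288 CPM in the overexpression libraries, a log2 fold change of 0.99 ± 0.13 (SE; edgeR adjusted p = 0.0029). All directions below are between the libraries as labelled.

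Of the members, 24 lay between genes, 18 lay inside or across the body of another gene without sharing exon bases, 11 shared exon bases with another gene, and the exons of 12 held an annotated microRNA. Coordinates are those of the BDGP6 assembly (dm6). The members were spread over the genome, with 16 on 3R, 16 on 3L, 13 on 2L, 10 on X, 9 on 2R and 1 on chromosome 4. Exons of all annotated transcripts of a gene were merged into blocks. Exon length so merged ran from 205 to 21710 bases with a median of 1176, and 32 members had 1 exon block. Because libraries carry no strand, reads of a member and of a gene that overlaps it on the other strand cannot be told apart.

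Levels were dominated by 4 RNAs. CR33938 (3R:6699560-6700164, between genes) had a mean of 10836 CPM over the 14 libraries, noe (3L:17400272-17401348, inside the gene blot) 8849 CPM, CR40469 (X:122493-122706) 4124 CPM and Hsromega (3R:21296127-21317836) 2325 CPM. These 4 exceeded 1000 CPM, 8 members lay between 100 and 1000 CPM, 36 between 10 and 100 and 17 between 5 and 10, with a median of 23.3 CPM. Next in order came CR45388 at 735 CPM, CR45242 at 579.9, CR31386 at 551, CR42491 at 389, CR42862 at 245 and CR31044 at 244. CR42491 shares 377 of its 747 exon bases with the ribosomal protein gene RpL22, so its count is uncertain.

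**Figure D1:**
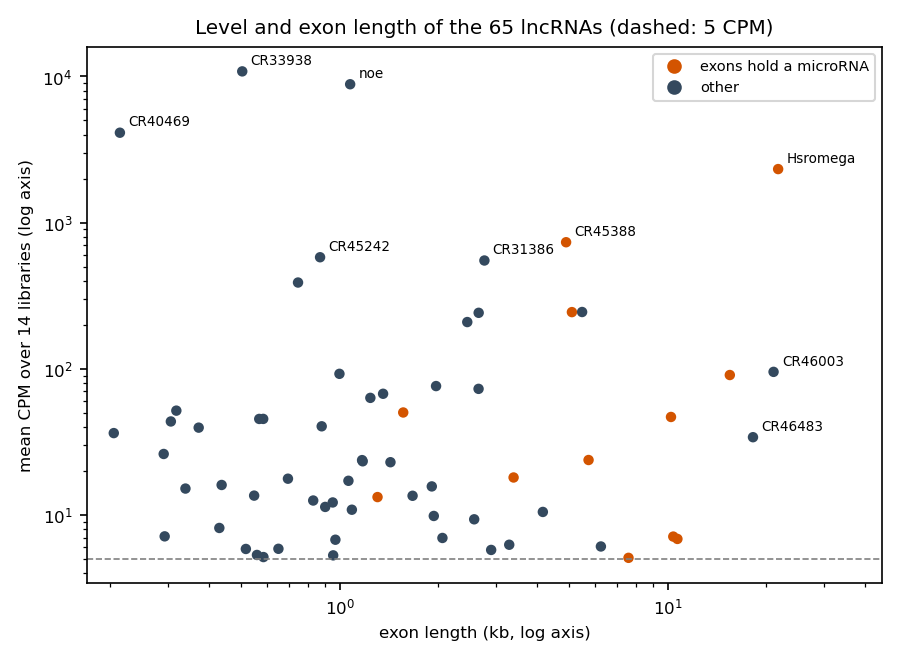
Mean level (CPM over 14 libraries, log axis) against exon length (kb, log axis) of the 65 lncRNAs; orange points are members whose exons hold a microRNA and the dashed line is the 5 CPM threshold. CR33938, noe and CR40469 stand at the top with short exons, while Hsromega reaches 2325 CPM over 21710 exon bases.

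Length changes that order. Per kilobase of merged exon, CR33938 reached 21458 CPM, CR40469 19269 and noe 8216, whereas Hsromega reached 107. The first 2 of these varied widely between replicates. CR40469 stood at 638 and 14114 TMM-normalised CPM in the HDAC1 controls, the widest gap within any pair of replicates above 1 CPM, and CR33938 at 27262, 10181 and 14172 in the GAF controls. All values by library from here on are CPM after TMM scaling within an experiment.

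Some members were present in one experiment and nearly missing in another, in the controls alone. Between the 3 sets of WT controls, 28 members differed at least 3-fold and 10 at least 10-fold in mean CPM, with values under 1 CPM set to 1. CR32582 stood at 107 and 63.3 CPM in the Osa controls but at 0.66, 0.229 and 0.31 CPM in the GAF controls and 2.71 and 1.56 CPM in the HDAC1 controls. CR44832 was at 94.6 and 87.9 CPM in the HDAC1 controls and at 0.0695 and 0.515 CPM in the Osa controls, and in the GAF controls it was at 0.0471, 9.94 and 0 CPM, where replicate 2 stood apart. Each of these 2 members was above 10 CPM in 1 experiment only. CR43314, whose exons hold mir-bft, was at 31 and 32.8 CPM in the HDAC1 controls and under 1 CPM in every control of the other experiments. CR46350 was at 11.2, 12.7 and 10.2 CPM in the GAF controls, at 0 and 0.125 CPM in the HDAC1 controls and at 0 in both Osa controls. The remaining 6 past 10-fold were CR32027, CR45358, CR44272, CR45387, noe and CR43264. Experiment coincides with anything else that differed between these sets, which cannot be told apart, so each treated group is compared only with its own controls.

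The named nervous-system transcript noe showed the same spread. It stood at 2281, 822 and 1199 CPM in the GAF controls, 15618 and 17362 CPM in the HDAC1 controls and 3290.1 and 3794 CPM in the Osa controls. The HDAC1 controls were above all others and the GAF controls the lowest.

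In the libraries labelled GAF RNAi many members were higher than in the controls and few were lower. Of the 63 members tested, 22 were higher and 5 lower at an edgeR adjusted p under 0.05, where 28.4% of all 9055 genes tested were called, 12.5% higher and 15.9% lower. The median log2 fold change was 0.41 over the members and 0.00 over all genes tested. The lncRNA rows under the level threshold leaned the same way in their median, which was 0.63. Of the 268 that could be tested, 40 were higher (14.9%) and 6 lower (2.24%), so 17.2% were called, fewer than over all genes. CR43314 and CR44832 had too few counts in these libraries to be tested. The libraries of the 2 groups did not overlap for 57.1% of the members and 44.2% of all genes tested. Of the 27 calls, 15 held under every alternative setting and every library left out, as far as they were tested. Among these, CR44978 and CR45358 were too low to be tested with the filter of a mean of at least 5 CPM.

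CR46056 had the largest fitted rise, although CR44272 or CR45358 stood above it with limma-voom, with the replicate block and without control replicate 2, control replicate 3 or RNAi replicate 3. It is a single exon block of 437 bases (3R:21638652-21639088) that lies inside E2f1, a cell cycle transcription factor gene on the opposite strand. Its level was 5.42, 3.7 and 4.52 CPM in the controls and 22, 24 and 22.6 CPM under GAF RNAi, a log2 fold change of 2.33 ± 0.20 (SE; edgeR adjusted p = 4.4e-06). The groups were far apart, while E2f1 itself gave a log2 fold change of 0.12 (edgeR adjusted p = 0.585).

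A stretch of 2L around Oli, which encodes a bHLH transcription factor of neurons, held 3 rising members. CR45919 (2L:17560813-17566551), whose exon holds mir-124, went from 11.8, 9.1 and 15.9 CPM to 35.6, 37.5 and 42.4 CPM, a log2 fold change of 1.65 ± 0.20 (SE; edgeR adjusted p = 9.1e-05). CR45358 (2L:17575152-17575490) went from 0.566, 0.84 and 0.33 CPM to 3.84, 2.41 and 1.79 CPM, 2.2 ± 0.48 (SE; edgeR adjusted p = 0.00477) on the log2 scale. In neither did the groups overlap, although CR45358 stayed below 4 CPM. CR45111 (2L:17583909-17584468) went from 1.37, 0.782 and 1.67 CPM to 3.82, 2.67 and 2.93 CPM, a log2 fold change of 1.3 ± 0.39 (SE; edgeR adjusted p = 0.0235). That call was lost without RNAi replicate 1 (edgeR adjusted p = 0.101), without control replicate 2 (0.0915) and without RNAi replicate 3 (0.0506). Oli rose too, by 0.63 on the log2 scale (edgeR adjusted p = 0.015).

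Other microRNA precursors were among the largest rises. CR46006 (3L:10323501-10367450), with mir-276a in its exons, went from 9.38, 8.99 and 9.08 CPM to 41, 24 and 25.7 CPM, a log2 fold change of 1.72 ± 0.21 (SE; edgeR adjusted p = 9.1e-05). CR31451 (3R:23983503-23985065), with mir-9381, went from 8.82, 4.56 and 7.76 CPM to 29.1, 29 and 32.3 CPM, a log2 fold change of 2.1 ± 0.23 (SE; edgeR adjusted p = 3.5e-05). Every RNAi library lay above every control for both. CR45388 (3L:18852573-18861363), which holds mir-315, a microRNA known to raise Wingless signalling, was tight within groups at 499.8, 505 and 490.5 CPM and 939, 993 and 1003 CPM, a log2 fold change of 0.97 ± 0.11 (SE; edgeR adjusted p = 3.4e-05). An antisense RNA, CR45912, covers 2674 of its 4902 exon bases and stood at 0.484 CPM in the controls. CR45387, a 306-base exon within an intron of CR45388, moved from 69, 56.8 and 48 to 98.9, 103 and 108 CPM, 0.83 ± 0.14 (SE; edgeR adjusted p = 0.00107) on the log2 scale, and its reads may belong to either gene. CR45911, with mir-13a, mir-13b-1 and mir-2c, members of a family known to repress cell death genes, rose by 0.74 on the log2 scale.

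CR44272 (2R) went from 1.82, 1.7 and 5.57 CPM to 17.3, 14.5 and 9.71 CPM, a log2 fold change of 2.19 ± 0.48 (SE; edgeR adjusted p = 0.0105). Control replicate 3 was the highest of its group, and the groups still did not overlap. CR45531 rose by 1.28, CR43144 by 1.27, CR45973 by 1.01 and CR30009 by 0.99 on the log2 scale. The CR45973 call was lost without RNAi replicate 3, whose 21.9 CPM was the highest (edgeR adjusted p = 0.0816). CR30009 begins 39 bases from CG12911 on the other strand, and CG12911 rose by 1.03. The smaller rises, from 0.41 to 0.95, were those of CR43256, CR44218, CR32027, CR32385, CR46003, CR31386, CR44268 and CR44024, besides CR45387 and CR45911. Of these, CR43256, CR32385, CR46003, CR44268 and CR44024 lost the call when 1 library or another was left out, with edgeR adjusted p up to 0.147. With all 14 libraries in 1 fit CR31386, CR45387, CR44218 and CR45911 lost theirs as well (edgeR adjusted p = 0.145, 0.228, 0.0789 and 0.0514), and CR32027 kept its call throughout.

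**Figure D2:**
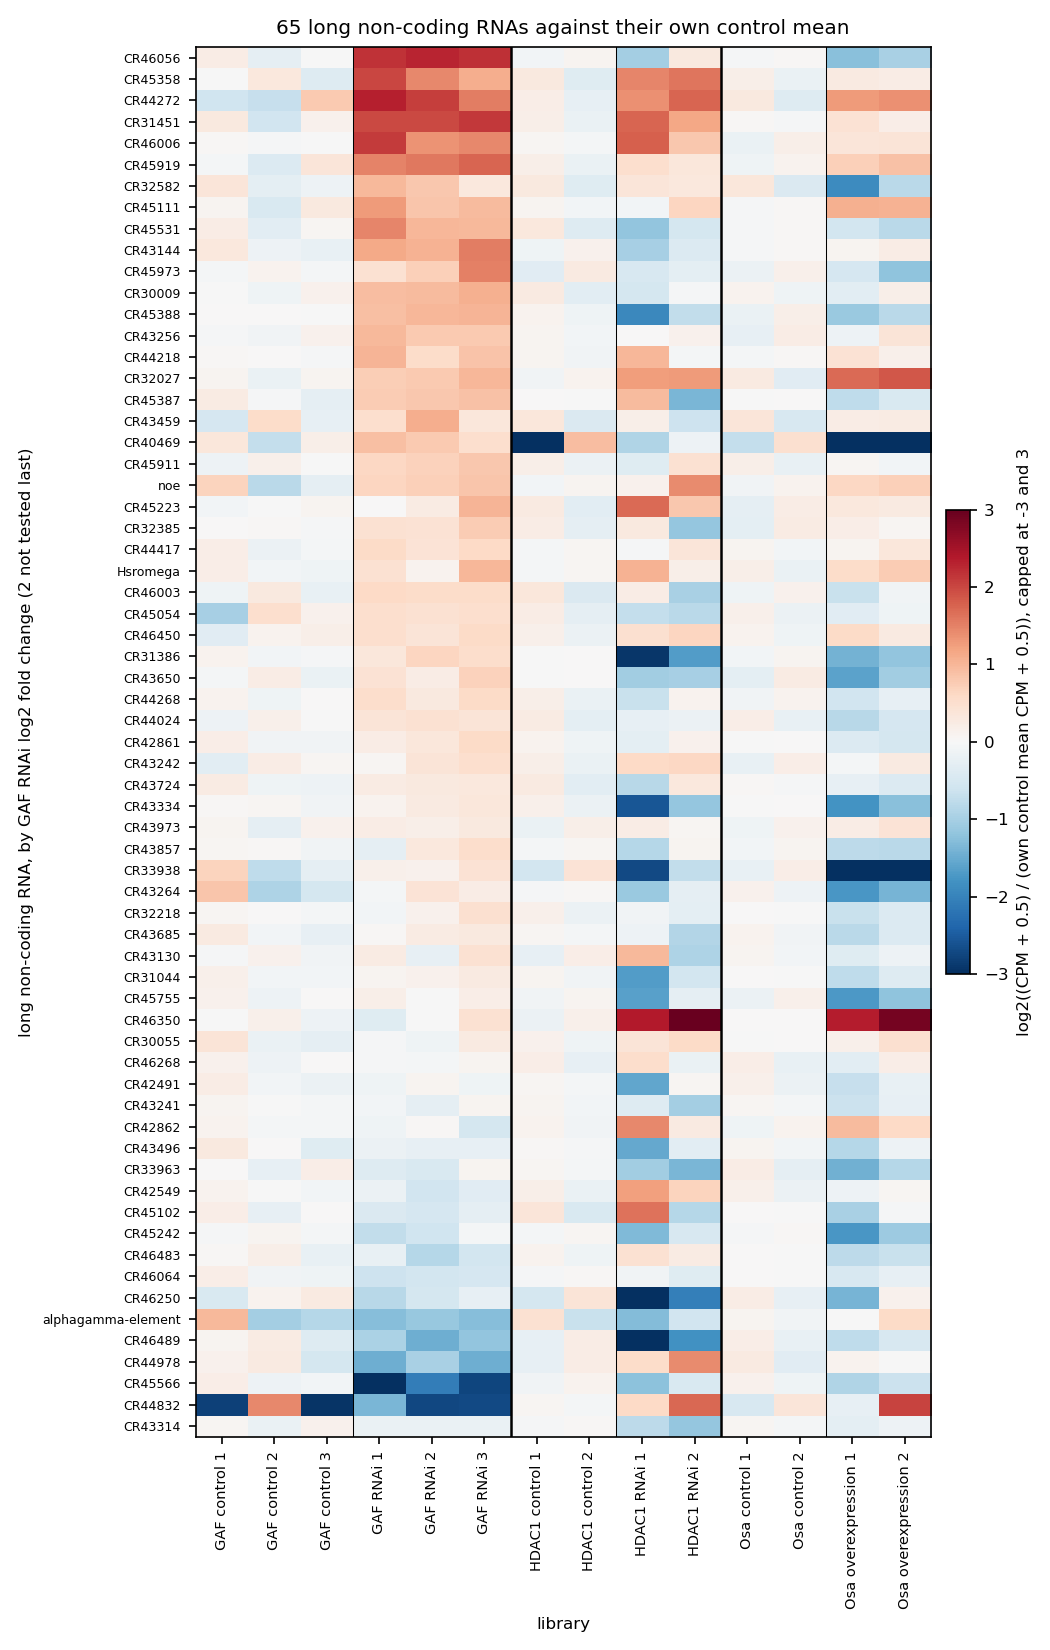
Level of each of the 65 lncRNAs in each of the 14 libraries, as log2 of CPM + 0.5 over the mean of its own controls + 0.5, ordered by the GAF RNAi fold change, with red above and blue below the controls and colours capped at -3 and 3. The GAF RNAi columns are red over most rows, while the HDAC1 RNAi columns differ from each other and share many directions with the Osa overexpression columns.

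CR45566 fell the most under GAF RNAi. This RNA (3R:27924879-27925368) shares 118 of its 430 exon bases with mino on the opposite strand, a lipid synthesis gene. Its level was 10.6, 8.17 and 8.63 CPM in the controls and 0.678, 1.8 and 0.926 CPM in the RNAi libraries, a log2 fold change of -3.0 ± 0.35 (SE; edgeR adjusted p = 6.8e-05). All 3 RNAi libraries lay below 2 CPM, and mino fell by 1.02 (edgeR adjusted p = 0.00059). CR44978, inside the receptor phosphatase gene Lar on the opposite strand, went from 3.91, 4.43 and 2.33 to 0.972, 1.55 and 0.969 CPM, a log2 fold change of -1.61 ± 0.38 (SE; edgeR adjusted p = 0.00801), while Lar rose by 0.77. CR46489 went from 18.3, 20.5 and 13.1 to 8.71, 5.9 and 7.27 CPM, a log2 fold change of -1.24 ± 0.22 (SE; edgeR adjusted p = 0.00147). The last 2 falls were smaller, -0.56 for CR46064 and -0.52 for CR46483, and that of CR46483 was lost without control replicate 2, RNAi replicate 2 or RNAi replicate 3 (highest edgeR adjusted p = 0.153).

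The stress-linked members did not pass in GAF RNAi. Hsromega stood at 2234, 1856 and 1789.8 CPM in the controls and 2682, 2094 and 3934 CPM under RNAi, a log2 fold change of 0.57 ± 0.20 (SE; edgeR adjusted p = 0.0629). Its groups overlapped, since RNAi replicate 2 lay below control replicate 1. The alphagamma-element, a heat-inducible RNA of the Hsp70 locus, stood at 267, 67.3 and 74.9 CPM in the controls and 56, 61.4 and 56.1 CPM under RNAi, a log2 fold change of -1.24 ± 0.65 (SE; edgeR adjusted p = 0.237). Control replicate 1 was far above the other controls, and in the same library Hsp70Bc was at 135 CPM against 36.1 and 40.1 and CR43264 at 174 CPM against 50.9 and 68.0. The part of that library in the comparison was not tested beyond leaving it out, which raised the number of called members to 35.

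Markers of other cells moved in the same libraries. Of the neuron list, 8 of 10 genes were higher and none lower under GAF RNAi, with summed levels of 41.7 to 66.9 CPM in the controls and 126 to 205 CPM under RNAi. The list of ganglion mother cells and new neurons had 4 of 5 higher (120 to 240.0 CPM against 444 to 838 CPM) and that of intermediate progenitors 6 of 7 higher (337 to 433 CPM against 465 to 503 CPM). The 9 genes of the type II NSC list summed to 1262 to 1353 CPM in the controls and 1220.4 to 1314 CPM under RNAi, with 1 higher and 2 lower. Glial genes summed to 601 to 703 CPM in the controls and 149 to 173 CPM under RNAi, with 3 higher and 1 lower of 8, so that their sum fell while their median log2 fold change was 1.08. None of the genes of these 5 lists was at 0 in any group. Fat body genes went from 12.7 to 20.5 CPM in the controls, where Lsp2, Fbp1 and Fbp2 were at 0, to 25.4 to 31.7 CPM under RNAi, with 1 of 1 tested higher. Muscle genes went from 1.68 to 2.40 CPM to 4.0 to 4.82 CPM, with 1 of 3 tested higher, and blood cell genes from 0.516 to 1.22 CPM to 1.70 to 2.99 CPM, with 1 of 1 tested higher and srp and eater at 0 under RNAi. These sums did not overlap between the groups. Germline genes went from 16.6 to 23.6 CPM to 46.0 to 60.7 CPM, with 3 of 3 tested higher. The part of these shifts in the lncRNA results was not tested, and in bulk libraries fewer cells of a type and less RNA per cell cannot be told apart.

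**Figure D3:**
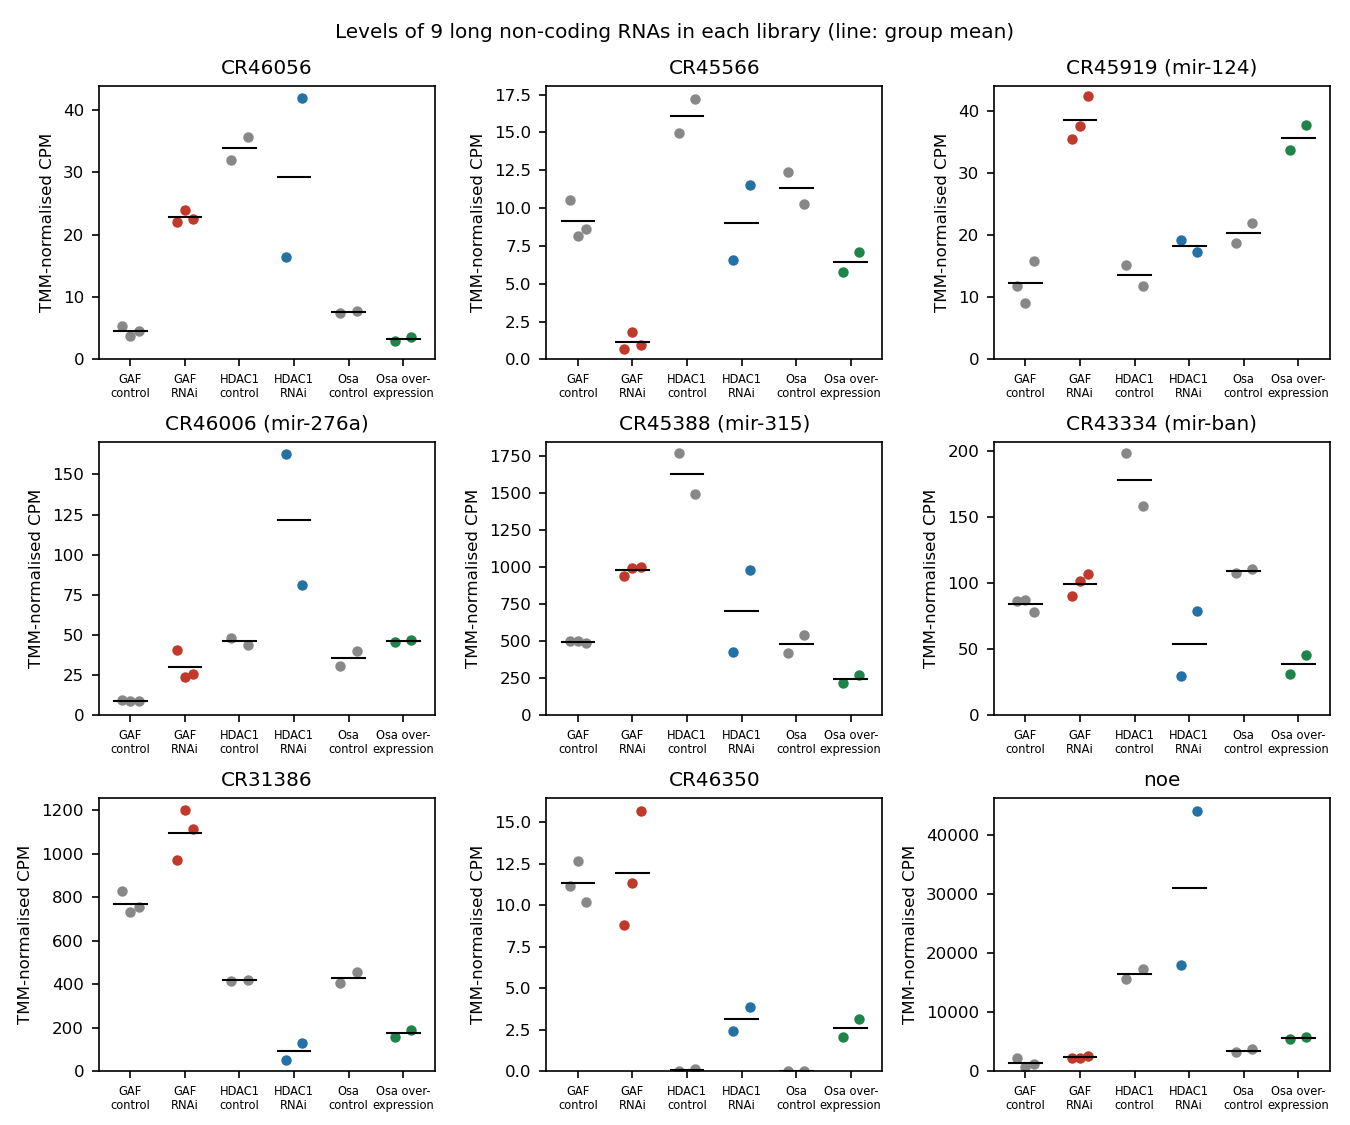
TMM-normalised CPM (linear axis) of 9 lncRNAs in every library, with group means as black lines, controls in grey and treated groups in colour. CR46056 lies between 22 and 24 CPM in all 3 GAF RNAi libraries against 3.70 to 5.42 CPM in their controls, and CR45566 lies under 2 CPM under GAF RNAi.

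In the Osa overexpression libraries more members were lower than higher. Of 64 members tested, 7 were higher and 16 lower (edgeR adjusted p under 0.05), where 21.1% of 9156 genes were called, 8.86% higher and 12.2% lower. The median was -0.35 over the members and 0.05 over all genes. The libraries of the 2 groups did not overlap for 78.1% of the members and 65.8% of all genes tested, so separate groups were the usual outcome here. With library size alone as the scale, the median of all genes moved from 0.05 to 0.32 and that of the members to -0.07. The called members became 10 higher and 9 lower, where 1963 of all 9156 genes were higher and 538 lower. Without overexpression replicate 1 the members' median was -0.12, with 9 higher and 11 lower, so the balance of directions depends on the scaling and on that library. The lncRNA rows under the level threshold had 11 lower and 0 higher of 269 tested. That is 4.09% called, fewer than over all genes, and their median was -0.08. Of the 23 calls, 11 remained without control replicate 1, 11 without control replicate 2, 18 without overexpression replicate 1 and 22 without overexpression replicate 2. CR31386, CR32027, CR43334 and CR45242 held under all 13 alternatives. CR46350 held under the 12 in which it was tested, but it passed the main count filter only through the overexpression libraries.

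Among the abundant RNAs, 2 fell steeply but with large spread. CR33938 went from 9069 and 12062 CPM in the controls to 396 and 1081 CPM in the overexpression libraries, a log2 fold change of -3.84 ± 0.57 (SE; edgeR adjusted p = 0.0176). It lies 1804 bases from Ccp84Ab, a cuticle protein gene, which fell by 5.29 (edgeR adjusted p = 0.0132). CR40469 went from 2763 and 6360.3 CPM to 111 and 157 CPM, a log2 fold change of -5.09 ± 0.47 (SE; edgeR adjusted p = 0.00383). In both RNAs the groups lay far apart, yet the call of CR33938 was lost without control replicate 1 or 2 (edgeR adjusted p = 0.253 and 0.343) and that of CR40469 without overexpression replicate 1 or 2 (0.287 and 0.187).

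The bantam precursor was among the firm falls. CR43334 (3L:628435-643900), whose exon holds bantam, a microRNA that promotes growth and restrains cell death, went from 108 and 111 CPM to 31.3 and 45.8 CPM, a log2 fold change of -1.5 ± 0.20 (SE; edgeR adjusted p = 0.00273). CR31386 (3R:11269415-11305608) went from 405 and 456 CPM to 159.8 and 190.0 CPM, a log2 fold change of -1.3 ± 0.15 (SE; edgeR adjusted p = 0.00162). CR45242 (3L:10269482-10270353) went from 409 and 431 CPM to 124 and 198 CPM, a log2 fold change of -1.38 ± 0.21 (SE; edgeR adjusted p = 0.0054). In all 3 the overexpression libraries lay below both controls, where groups were apart for 65.8% of all genes tested. Of the exon bases of CR43334, 994 are shared with CR43423 on the opposite strand. CR43650, with mir-8, a microRNA of the miR-200 family, went from 9.52 and 14.2 to 3.55 and 5.5 CPM, a log2 fold change of -1.39 ± 0.36 (SE; edgeR adjusted p = 0.024) that was lost without control replicate 2 (edgeR adjusted p = 0.182).

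Further falls were CR43264 at -1.71, CR45755 at -1.51, CR46056 at -1.21 and CR33963 at -1.16 on the log2 scale. CR33963 shares 186 of its 1171 exon bases with Tis11 on the same strand, so its reads can be those of Tis11. Each of the 4 lost its call without control replicate 1 or 2, with edgeR adjusted p of 0.0714 for CR43264, 0.061 for CR45755, 0.17 for CR46056 and 0.178 for CR33963. Smaller falls, from -0.96 to -0.57, were those of CR45388, CR43857, CR46483, CR44024, CR43685 and CR31044, and each of these 6 also lost its call without at least 1 control library. CR43857 holds mir-275 and CR31044 holds mir-279 and mir-996, microRNAs known for their part in sensory neuron formation.

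CR46350 (3R:9283875-9284525, between genes) had the largest fitted rise under Osa overexpression. It had 0 counts in both controls and 74 and 112 counts in the overexpression libraries, 2.05 and 3.16 CPM. From the raw counts of both groups and their library totals, without TMM scaling, the level was at least 50.6-fold higher, the lower limit of the exact 95% interval of the ratio (edgeR adjusted p = 0.00408). That limit covers counting error only and would be lower if both mates of a pair were counted. The level stayed below that of every GAF library, where it ran from 8.80 to 15.7 CPM in controls and RNAi alike. Its place among the members rests on those GAF libraries. In this experiment it passed the count filter only through the overexpression libraries, so its adjusted p is no independent support for the rise.

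The other rises were smaller. CR32027, inside the transporter gene Indy on the opposite strand, went from 3.58 and 2.19 CPM to 10.5 and 11.8 CPM, a log2 fold change of 1.95 ± 0.36 (SE; edgeR adjusted p = 0.00762). CR44272 went from 13.6 and 8.27 CPM to 27.2 and 29.1 CPM, a log2 fold change of 1.36 ± 0.27 (SE; edgeR adjusted p = 0.0101). The overexpression libraries lay above both controls for each, and the call of CR44272 was lost without control replicate 2 (edgeR adjusted p = 0.0689). CR45919, the mir-124 precursor, went from 18.7 and 22 CPM to 33.7 and 37.8 CPM, a log2 fold change of 0.81 ± 0.20 (SE; edgeR adjusted p = 0.02), lost without control replicate 1 (0.18) or 2 (0.0736). CR42862, which shares 246 of its 5485 exon bases with CG33229, rose by 0.78, a call lost without control replicate 1 (edgeR adjusted p = 0.117).

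Hsromega and noe were both higher in the Osa overexpression libraries. Hsromega went from 2508 and 1953 CPM to 3281 and 3807 CPM, a log2 fold change of 0.67 ± 0.17 (SE; edgeR adjusted p = 0.0209). noe went from 3290.1 and 3794 CPM to 5433 and 5860.1 CPM, a log2 fold change of 0.67 ± 0.15 (SE; edgeR adjusted p = 0.0135). The groups did not overlap in either, but the call of Hsromega was lost without control replicate 2 (edgeR adjusted p = 0.21) and that of noe without control replicate 1 (0.137). Of the 10 genes of omega speckle proteins in the table, 4 rose and 1 fell (edgeR adjusted p under 0.05), with a median of 0.45 against 0.05 over all genes. The chromatin remodeller Iswi rose by 0.95, Saf-B by 1.06, TBPH by 0.59 and nonA by 0.58, and sqd fell by 0.52. Of 13 heat shock genes tested, 4 rose, namely Hsp70Bb, Hsp70Bc, Hsp70Bbb and Hsp68, by 0.67 to 0.77, and none fell. The Hsp70 genes among them may share reads, since how multi-mapping reads were counted is not given, so their rises may not be separate. The alphagamma-element was at 50.5 and 44.3 CPM in the controls and 47.2 and 71 CPM in the overexpression libraries, with overlapping groups. These shares stand beside 8.86% higher and 12.2% lower over all genes. In GAF RNAi, 3 of 10 omega speckle genes rose (Hrb87F, nonA and caz) and none fell. These 30% called, all higher, stand beside 28.4% called and 12.5% higher over all genes there. Of 13 heat shock genes, 2 small Hsp genes (Hsp23, Hsp27) were higher and Hsp83 lower there, 23.1% called against 28.4% of all genes. Scaled by library size alone, the Osa counts became 8 omega speckle genes higher and 0 lower, the fall of sqd among those lost, and 7 heat shock genes higher. With that scaling 1963 of all 9156 genes were higher and 538 lower.

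In the Osa experiment the marker lists moved as well. Genes of intermediate progenitors were 5 higher and 1 lower of 7, with sums of 631 to 637 CPM in the controls and 882 to 1134 CPM in the overexpression libraries, and genes of ganglion mother cells and new neurons 4 higher of 5 (280.2 to 403 CPM against 696 to 828 CPM). Neuron genes were 3 higher of 10 (931 to 1305 CPM against 1401 to 1601 CPM) and glial genes 2 higher of 8 (447 to 568 CPM against 632 to 695 CPM). The type II NSC list had 2 higher and 3 lower of 9 (1612 to 1714 CPM against 1178 to 1191 CPM). Of the other lists, 1 fat body gene was lower and no blood cell, muscle or germline gene passed. No gene of the first 5 lists was at 0 in either group, and their part in the lncRNA results was not tested.

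HDAC1 RNAi gave no called member. Of 65 tested, 0 passed in edgeR, where 0.0971% of 10299 genes did. An unadjusted p under 0.05 was found for 18 members and for 1222 of the 10299 genes. DESeq2 called 8 members and limma-voom 0. Shares over all genes are not given for DESeq2 or for fits with a library left out, so those counts describe the members only. The median log2 fold change of the members was -0.19, against 0.06 over all genes, and with library size alone as the scale both moved up, to 0.11 and 0.33, so the sign of the members' median depends on the scaling. It also turned without control replicate 1, to 0.10. The replicates lay far apart, and the count rose to 18 without RNAi replicate 1 and 33 without RNAi replicate 2. No marker gene passed either, although type II NSC sums were 1234 to 1260.3 CPM in the controls and 451 to 532 CPM under RNAi, and neuron sums 365 to 506 CPM against 873 to 1100.2 CPM. None of either list was at 0, and their part was not tested.

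The 5 members with the smallest p are given as values. CR46350 stood at 0 and 0.125 CPM in the controls and 2.45 and 3.87 CPM under RNAi (edgeR adjusted p = 0.0672). It passed the count filter here only through the RNAi libraries, so its p is no independent support for a rise. CR31386 stood at 418 and 418 CPM and 54.6 and 129 CPM, a log2 fold change of -2.18 ± 0.52 (SE; edgeR adjusted p = 0.135). The groups of these 2 did not overlap, which held for 61.5% of the members and 43.1% of all genes tested. CR46489 gave a log2 fold change of -2.44 ± 0.54 (SE; edgeR adjusted p = 0.112), CR46250 of -2.96 ± 0.68 (SE; edgeR adjusted p = 0.127) and CR45358 of 1.57 ± 0.40 (SE; edgeR adjusted p = 0.167). The bantam precursor CR43334 stood at 198 and 158 CPM in the controls and 29.7 and 78.9 CPM under RNAi, with both RNAi libraries below both controls and an edgeR adjusted p of 0.202.

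Across the experiments, 23 members were called in none, 34 in 1, 8 in 2 and 0 in 3. The same split over all genes is not given here. Of all genes tested, 28.4% were called in GAF RNAi, 21.1% in Osa overexpression and 0.0971% in HDAC1 RNAi. The 8 called in both GAF RNAi and Osa overexpression were 12.7% of the 63 tested in both, where 7.43% of 8482 genes were called in both. They split evenly in direction, while 468 of the 630 such genes moved the same way. CR32027, CR44272 and CR45919 were higher in both and CR46483 lower in both, whereas CR31386, CR44024, CR45388 and CR46056 were higher under GAF RNAi and lower under Osa overexpression. Of the 8, CR32027 alone kept both calls under every alternative.

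**Figure D4:**
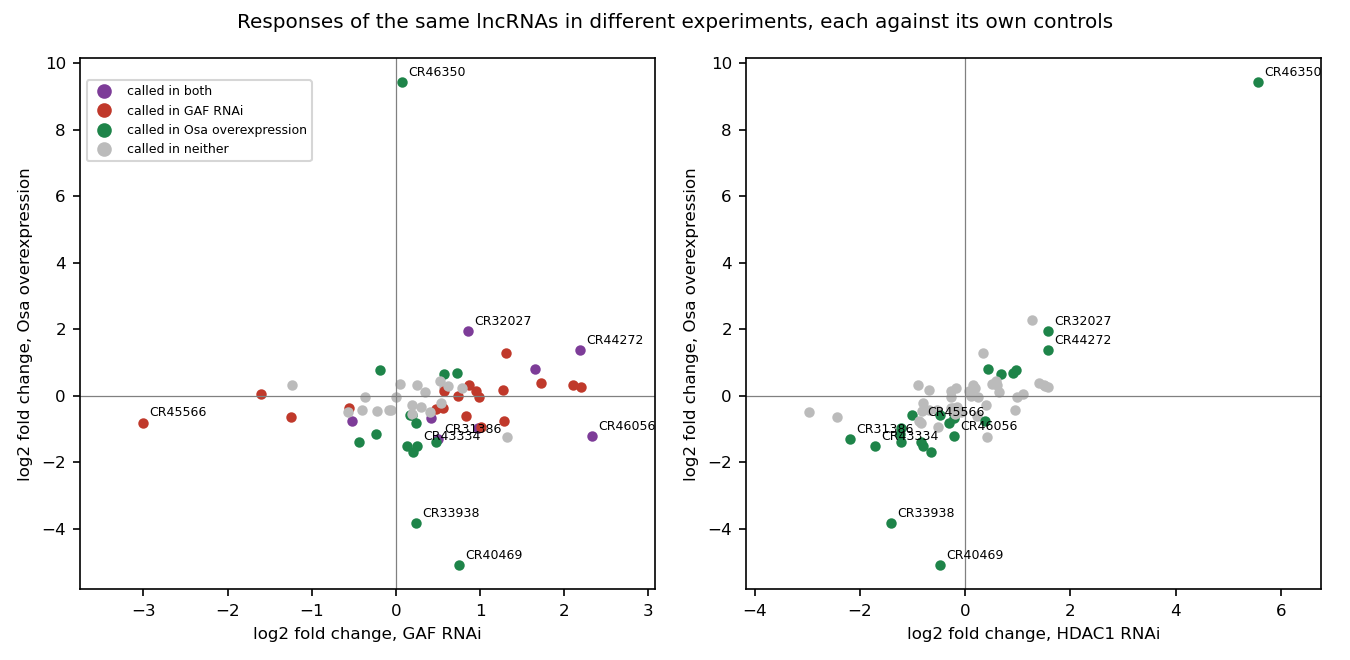
Log2 fold change of each lncRNA in Osa overexpression (vertical axis) against that in GAF RNAi (left) and in HDAC1 RNAi (right), each against its own controls, coloured by the edgeR call. CR46056, CR31386 and CR45388 lie to the right of 0 and below 0 on the left, while on the right 52 of 64 members lie on the same side of 0 in both; the position of CR46350 depends on fitted values against groups at or near 0 counts.

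The difference between responses was tested in 1 fit of all 14 libraries. Between GAF RNAi and Osa overexpression, 10 of 65 members differed (edgeR adjusted p under 0.05), 8 with the higher response in GAF RNAi and 2 with the lower, where 2.87% of 11181 genes did, 1.68% higher and 1.19% lower. CR46056 differed by 3.52 ± 0.44 (SE; edgeR adjusted p = 0.00047), CR45388 by 1.92 ± 0.33 (SE; edgeR adjusted p = 0.00541), CR31386 by 1.79 ± 0.33 (SE; edgeR adjusted p = 0.00866) and CR33938 by 4.05 ± 0.81 (SE; edgeR adjusted p = 0.0201) on the log2 scale. The differences of CR31386, CR45388 and CR33938 were lost without Osa overexpression replicate 1 (edgeR adjusted p = 0.0731, 0.0532 and 0.0964), and that of CR33938 also without control replicate 1 or 2 of Osa. Leaving out that overexpression library left 2 of the 10 in all.

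Between GAF RNAi and HDAC1 RNAi, 10 members differed, 6 of them higher and 4 lower in GAF RNAi, where 3.2% of all genes did, 1.09% higher and 2.11% lower. CR31386 differed by 2.61 ± 0.34 (SE; edgeR adjusted p = 0.00048), CR46056 by 2.46 ± 0.43 (SE; edgeR adjusted p = 0.00452), CR45388 by 2.1 ± 0.33 (SE; edgeR adjusted p = 0.0022) and CR43144 by 1.85 ± 0.32 (SE; edgeR adjusted p = 0.00484). CR46350 also differed in both tests, with a log2 fold change of 0.07 ± 0.23 (SE; edgeR adjusted p = 0.847) in GAF RNAi beside the low control counts of the other experiments. Between HDAC1 RNAi and Osa overexpression, 0 of 65 differed in edgeR (adjusted p under 0.05), where 0.00894% of all genes did, and 1 in DESeq2. At an unadjusted edgeR p under 0.05 were 13 of the 65 members and 907 of all 11181 genes.

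The HDAC1 and Osa responses of the members ran in parallel, as a description across genes, which are not independent replicates. Over 64 members Pearson's r was 0.74 and Spearman's rho 0.73, with 52 of the same sign. Without CR46350 r was 0.57, and over 8877 genes it was 0.41. For GAF RNAi against Osa overexpression r was 0.07 and rho 0.24 over 63 members, r was 0.16 without CR46350, and over 8482 genes it was 0.17. For GAF RNAi against HDAC1 RNAi r was 0.27 and rho 0.30, r was 0.37 without CR46350, and over 8657 genes it was 0.18.

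The 12 members with a microRNA in an exon can be read together. In GAF RNAi 5 of 11 tested were higher and none lower, where 12.5% of all genes were higher and 15.9% lower, with a median of 0.74 against 0.00 over all genes and 0.41 over the members. In Osa overexpression 2 of 11 were higher, namely CR45919 and Hsromega, and 5 lower, namely CR43334, CR43650, CR45388, CR43857 and CR31044, where 8.86% of all genes were higher and 12.2% lower. Scaled by library size alone, 4 were higher and 3 lower, where 1963 of all 9156 genes were higher and 538 lower. The balance among these hosts too thus depends on the scaling. In HDAC1 RNAi none of 12 passed. These values are of the host RNA, and mature microRNAs were not measured by polyadenylated RNA libraries.

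**Figure D5:**
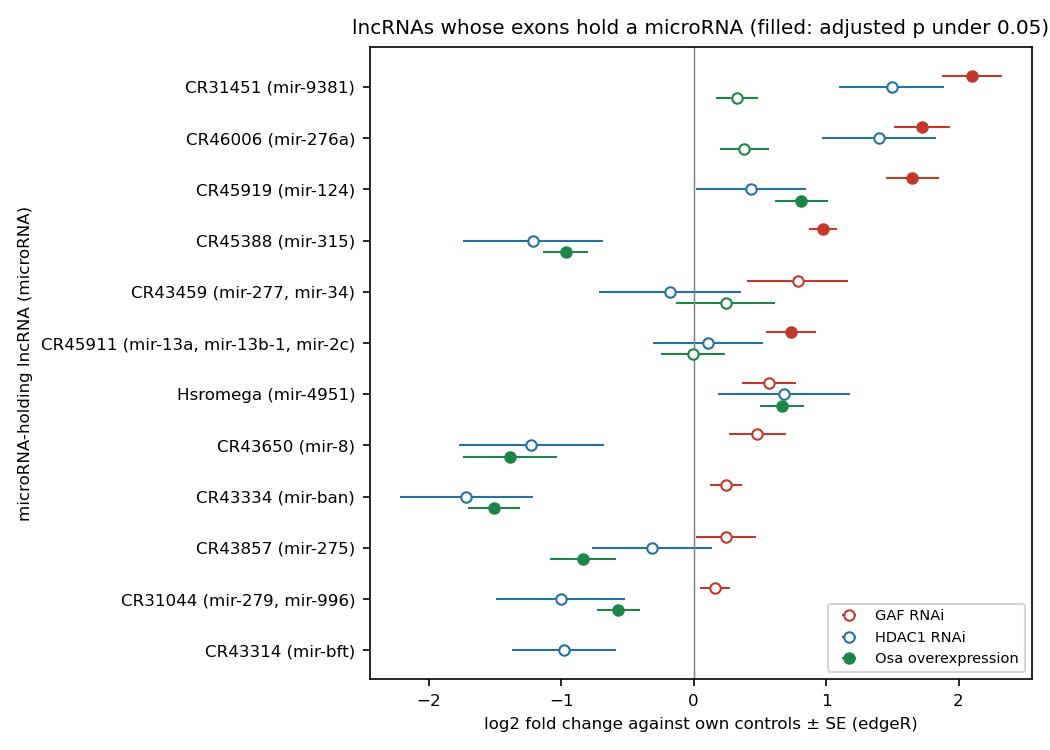
Log2 fold change ± SE (edgeR) of the 12 lncRNAs whose exons hold a microRNA in GAF RNAi (red), HDAC1 RNAi (blue) and Osa overexpression (green), with filled points where the adjusted p is under 0.05. The mir-124, mir-276a and mir-9381 hosts are highest under GAF RNAi and the mir-ban, mir-8 and mir-315 hosts lie below 0 in the other 2 experiments.

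Overlapping and neighbouring genes gave no uniform companion. Of 19 pairs of a member and a protein-coding gene overlapping it on the opposite strand, 11 had the same sign in GAF RNAi and 11 in Osa overexpression. In GAF RNAi both partners were called in 4 of these pairs, 2 of them in the same direction. Where the nearest protein-coding gene lay under 1000 bases away, 15 of 22 pairs had the same sign in GAF RNAi and 7 of 22 in Osa overexpression. At 1000 bases or more these were 18 of 30 and 20 of 31. Of the latter pairs with both genes called, 4 of 10 moved the same way in GAF RNAi and 3 of 3 in Osa overexpression. Of the 5 pairs that share exon bases on the same strand, 3 had the same sign in GAF RNAi and 5 in Osa overexpression. In HDAC1 RNAi, where no member was called, 12 of 19 opposite-strand pairs and 5 of 5 same-strand pairs had the same sign. There the nearest gene had it in 12 of 22 pairs under 1000 bases and 20 of 33 at 1000 bases or more. Signs of unchanged genes are included in these counts, so they are a description.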

How the data were processed

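The authors deposited 1 table of unnormalised gene counts. The submitters' processing notes name featureCounts 2.0.3, SAMtools 1.6, HISAT2 2.2.1, Trim Galore 0.6.10 and the build dm6. How pairs and multi-mapping reads were counted, and on which annotation, is not given there. Low counts (1 to 49) were even in 61.5% to 70.4% of cases, so both mates of a pair may often have been counted.

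All 65 members, and 17771 of 17868 rows, matched 1 gene of the BDGP6 annotation, directly or through RefSeq synonyms. Genes were filtered with edgeR (minimum count 10, minimum total 15), normalised by TMM and compared by quasi-likelihood F-test (edgeR 4.0.16, R 4.3.3), with Benjamini-Hochberg adjustment over all genes at 0.05, within each experiment. The code was tested on simulated data. SE is the log2 fold change over the square root of F. Differences between responses are contrasts in 1 fit of 6 groups. DESeq2 1.42.0 and limma 3.58.1 (voom) were alternatives. Counting intervals and floors cover counting error only, since amplified reads are not independent molecules.

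Members and lists were chosen with earlier results of these data known. Named were the targeted genes, members with a name, the 10 highest, the 10 largest called rises and falls per experiment (or the 5 smallest p), the 5 smallest p per difference, the threshold neighbours, and genes beside them. Also given, chosen after their values were seen, are smaller calls and precursors of microRNAs. Sequences of promoters and microRNAs were not used here, so no motif was searched.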

Additional observations from a re-analysis of the deposited data

Results flagged for a closer look

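Of the members whose responses differed between experiments by a test of the difference itself, 10 in each of 2 differences, the 5 with the smallest p in each are given here (edgeR, adjusted p under 0.05, log2 scale, each response against its own controls). Against HDAC1 RNAi, the GAF RNAi response was higher by 2.61 for CR31386, by 2.46 for CR46056, by 2.10 for CR45388 and by 1.85 for CR43144, and for CR46350 the difference was -5.60. Against Osa overexpression, it was higher by 4.05 for CR33938, by 3.52 for CR46056, by 1.92 for CR45388 and by 1.79 for CR31386, and for CR46350 the difference was -9.40. Both values of CR46350 rest on controls with few or no reads (0 and 4 counts in the HDAC1 controls, 0 in both Osa controls) and are no bound on its fold. The controls of the experiments differ in level as well, and experiment and batch cannot be told apart.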

How the results depend on the processing

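No named call changed direction under any alternative. Calls of members in GAF RNAi (27) became 42 with a member threshold of 2 CPM and 17 with all 14 libraries in 1 fit. In HDAC1 RNAi (0) they became 8 without a filter, 8 with DESeq2, 1 with counts divided by 2, 8 with the replicate block and 11 with all 14 libraries. In Osa overexpression (23) they became 14 among members with no shared exon bases and 8 with all 14 libraries. Differences between GAF RNAi and HDAC1 RNAi (10) became 6 with a threshold of 10 CPM and 6 with no shared exon bases. Those between GAF RNAi and Osa overexpression (10) became 6 with 10 CPM, 5 with no shared exon bases, 16 without a filter and 23 with DESeq2, and those between HDAC1 RNAi and Osa overexpression (0) became 1 with DESeq2. Smaller sets of members and of genes tested lower such counts by construction, and the cause of the other moves was not tested.

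With 1 library left out, which leaves 1 sample in an arm of 2 and assumes that it varies like the others, the counts ran from 22 to 35 in GAF RNAi, 0 to 33 in HDAC1 RNAi, 11 to 35 in Osa overexpression, 5 to 23 for GAF against HDAC1, 2 to 11 for GAF against Osa and 0 to 9 for HDAC1 against Osa. Whether replicate numbers pair the samples cannot be settled here. Deviations of same-numbered libraries correlated at 0.00, -0.01 and -0.09 in GAF RNAi, at 0.14 in HDAC1 RNAi and at 0.00 in Osa overexpression. A low correlation over genes does not exclude pairing. With the replicate block, calls were 28 in GAF RNAi, 8 in HDAC1 RNAi and 21 in Osa overexpression, and 9, 9 and 0 in the 3 differences.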
